A study of Mus musculus with 4 samples.

Results

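The 6 genes that set the supply of osteoclasts, the RANKL, OPG and M-CSF axis, were followed through the cell types of mouse fracture callus. They were chosen by name, 6 of the 32285 genes counted. *Tnfsf11* encodes the ligand RANKL, *Tnfrsf11b* its soluble decoy receptor OPG, and *Tnfrsf11a* its receptor RANK. *Csf1* encodes M-CSF and *Il34* encodes interleukin 34, and both bind the receptor encoded by *Csf1r*. All 6 were detected in all 4 libraries, and none was left out.

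Callus came from the fractured tibia of wild-type C57BL/6J mice that were 3 months old, and the study asked how systemic inflammation changes the cells of the callus. Control mice received vehicle. RA mice received K/BxN serum, which carries arthritis-inducing antibodies, by intraperitoneal injection from the day of fracture. Callus was scraped along the periosteal surface at 4 or 7 days post fracture (dpf), pooled from 4 calluses by the labels (3 by the methods), and made into 1 library for each condition and time (control_4d, control_7d, RA_4d and RA_7d). With 1 library a group there is no replicate and no test between groups. Condition, pool and library cannot be told apart, and each interval below is a 95% interval of counting error that leaves out the spread between cells and between mice.

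Osteoclasts are the cells that resorb mineralised cartilage and bone. They arise when cells of the monocyte and macrophage lineage receive M-CSF, which keeps them alive and growing, and RANKL, which binds RANK and switches on NFATc1 and the genes of fusion and resorption. OPG binds RANKL and keeps it from RANK, so the amounts of ligand and decoy are usually read together. In bone, cells of the mesenchymal lineage and hypertrophic chondrocytes are known sources of RANKL, as are activated T cells in inflamed tissue.

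After the study's limits on UMIs (unique molecular identifiers, each 1 captured RNA molecule), features and mitochondrial share, 25479 of 34038 barcodes were kept, between 4110 and 8223 a library. Kept cells held between 83405494 and 156567619 UMIs a library, with a median of 16093.5 to 17631.5 UMIs a cell. Clusters were named from marker genes as 29 classes plus 2 clusters rich in doublets, so that a class need not hold the cells of a like-named cluster of the study. A level is given as CPM, the UMIs of a gene summed over the cells of a class for every 1000000 UMIs of those cells. Osteoclast-like cells held 2904 CPM of *Acp5*, 4721 of *Ctsk* and 2030 of *Mmp9*, but 18.3 of *Oscar* and 1.15 of *Calcr*. Chondrogenic-like cells held 21632 CPM of *Col2a1* and, as drawn here, were all but absent at 4 dpf, with 1 cell in either library. This depended on where the class was drawn. With the looser cell filter given below, a class of this name held 79 cells in control_4d and 57 in RA_4d, whose marker levels are not given. Of the 10 leading genes of the dendritic-like cluster 4 were MHC class II genes of a macrophage list, so only its summed level is given. Between 5 and 15 barcode sequences were shared by any 2 libraries, and 592 cells (2.32%) were called doublets and kept.

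All levels are of RNA, and protein was not measured in these libraries. The sequenced tags mark the 3′ end of a transcript, so levels were not divided by gene length and were compared between cells, not between genes. On GRCm38, *Tnfsf11* (ENSMUSG00000022015) lies at chr14:78277445-78308043 and *Tnfrsf11b* (ENSMUSG00000063727) at chr15:54250619-54278484, both on the minus strand. *Csf1* (ENSMUSG00000014599) lies at chr3:107741048-107760469 on the minus strand and *Tnfrsf11a* (ENSMUSG00000026321) at chr1:105780718-105847981 on the plus strand. *Il34* (ENSMUSG00000031750), at chr8:110741829-110805924 on the minus strand, is overlapped by *Gm15894* and *Gm15895* on the other strand. *Csf1r* (ENSMUSG00000024621) is overlapped by *Hmgxb3* on the other strand and *Mir6983* on its own.

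RefSeq promoters (GRCm38.p6) were at hand for 3 of the 6 genes. They are shown because *Tnfsf11* and *Csf1*, which came from the same lineage, differed in opposite directions between 4 and 7 dpf in control callus, and *Tnfrsf11a* is the receptor of the first. Each runs 5′ to 3′ over the 250 bases before the start of the transcript on the strand of the gene, and capitals mark the motifs found on either strand.

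Tnfsf11: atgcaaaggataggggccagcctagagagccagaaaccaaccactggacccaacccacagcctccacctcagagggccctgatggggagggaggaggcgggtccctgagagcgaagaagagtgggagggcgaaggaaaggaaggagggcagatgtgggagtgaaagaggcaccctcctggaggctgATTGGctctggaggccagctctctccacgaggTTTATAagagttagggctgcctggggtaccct

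Csf1: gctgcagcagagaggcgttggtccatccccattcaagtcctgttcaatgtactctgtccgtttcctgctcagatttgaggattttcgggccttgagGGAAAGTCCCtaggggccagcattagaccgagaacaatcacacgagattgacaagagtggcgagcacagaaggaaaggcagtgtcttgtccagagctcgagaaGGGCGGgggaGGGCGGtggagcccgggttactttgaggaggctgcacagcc

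Tnfrsf11a: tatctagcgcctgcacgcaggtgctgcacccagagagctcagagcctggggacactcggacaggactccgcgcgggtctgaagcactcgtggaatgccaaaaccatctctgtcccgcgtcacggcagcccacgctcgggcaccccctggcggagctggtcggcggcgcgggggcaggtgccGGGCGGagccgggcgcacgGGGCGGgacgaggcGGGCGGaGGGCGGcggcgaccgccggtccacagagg

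The *Tnfsf11* window, chr14:78308044-78308293 (60.4% G and C), held 1 TATA box (TATAAA, here as TTTATA) and 1 CCAAT box (CCAAT, here as ATTGG). The *Csf1* window, chr3:107760470-107760719 (56.4%), held 2 GC boxes (GGGCGG) and 1 match to the 10-base NF-κB consensus (GGGA, any base, TTTCC), here on the opposite strand. The *Tnfrsf11a* window, chr1:105780473-105780722 (73.6%), held 4 GC boxes. Of 32851 promoter windows of this length, 12.4% held the TATA box, 33.8% the CCAAT box, 32.7% the GC box and 0.356% the NF-κB consensus. An AP-1 site (TGANTCA) was in none of the 3 windows and in 6.75% of all, and the median G and C content of all windows was 52.4%. A match is a stretch of letters and was not tested as a binding site.

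Transcripts of RANKL and of its decoy both lay in mesenchymal cells, which were 35.0% of the kept cells. These cells held 94.0% of the 6922 *Tnfsf11* UMIs, from 90.9% in control_4d to 96.2% in control_7d, and 96.2% of the 3138 *Tnfrsf11b* UMIs. M-CSF had a wider origin. Mesenchymal cells held 75.6% of the 23404 *Csf1* UMIs, endothelial cells 11.3% and myeloid cells 4.70%. For *Il34*, of which 3992 UMIs were counted, mesenchymal cells held 51.7%, but the mural cells of vessel walls, 3.26% of the cells, held 31.1% and Schwann-like cells 7.39%. Transcripts of both receptors lay mainly in myeloid cells, with 81.5% of the 20679 *Tnfrsf11a* UMIs and 92.7% of the 73019 *Csf1r* UMIs. Endothelial cells held a further 11.98% of *Tnfrsf11a*, between 8.13% and 9.22% in 3 libraries and 28.1% in RA_7d. These shares also follow how many cells of each lineage a library held.

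**Figure D1:**
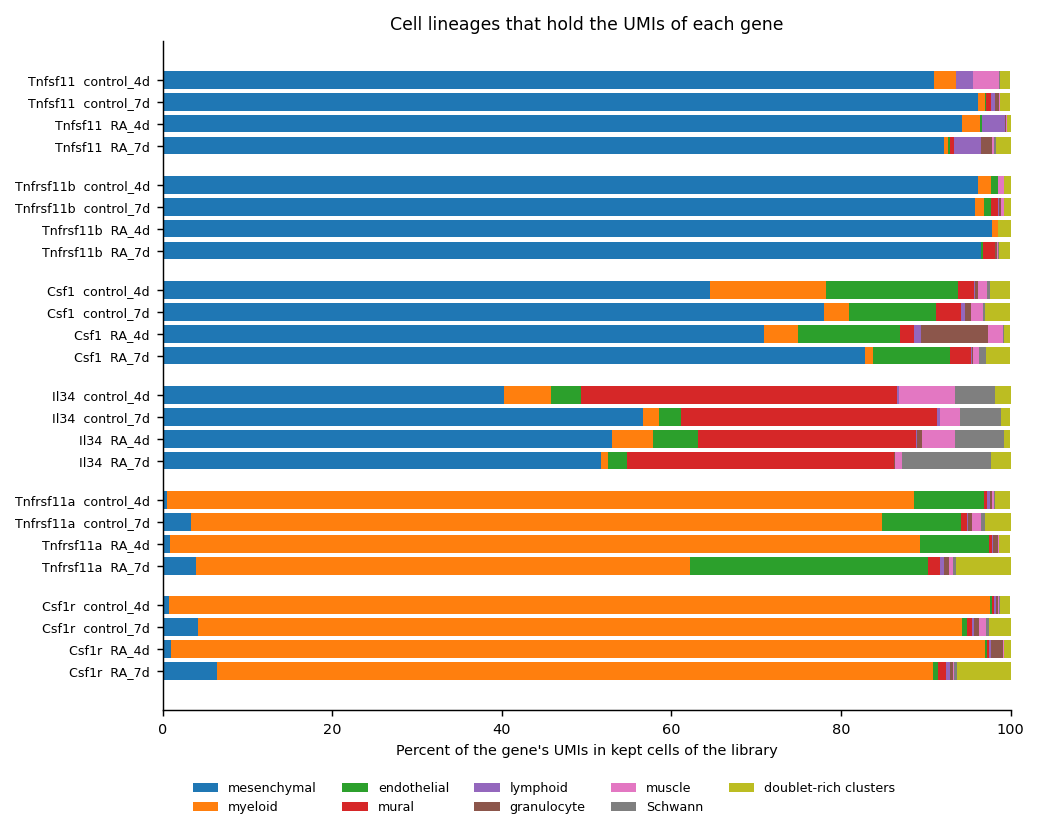
Percent of the UMIs of each gene (x axis) that lay in each cell lineage, as 1 stacked bar for each gene and library. Mesenchymal cells held over 90% of *Tnfsf11* and *Tnfrsf11b* in each library, mural cells a large part of *Il34* only, and the endothelial share of *Tnfrsf11a* was 28.1% in RA_7d.

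RANKL transcripts were spread over several mesenchymal classes. Committed mesenchymal progenitor-like cells (*Postn*, *Aspn*, *Tnn*) held 37.9% of all *Tnfsf11* UMIs, cycling mesenchymal-like cells 21.1%, an unnamed mesenchymal cluster led by *Saa3* and *Mmp3* 17.7%, and tenocyte precursor-like cells of the *Mmp13* cluster 10.6%. In the progenitor-like cells the level was 41.7 CPM at 4 dpf and 53.7 at 7 dpf in control callus, against 84.6 and 39.2 in RA callus. RA_4d stood above the other 3 libraries there. Summed over libraries, the level was 50.01 CPM in progenitor-like, 48.5 in cycling, 43.9 in *Mmp13* tenocyte precursor-like and 30.7 in *Saa3* *Mmp3* cells. The ranges over the 4 libraries overlapped between neighbours in this order, so the order of these 4 classes is not set apart from the spread. A UMI was found in 48.8% of the progenitor-like cells (median depth 29193 UMIs) and in 0.4996% of the capillary and arterial endothelial-like cells (median depth 16884), taken as the background, where the level was 0.312 CPM. With each cell thinned to 4000 UMIs the shares were 14.2% and 0.167%.

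Other mesenchymal classes held less of the ligand with the main filter. There the level was 5.95 CPM in tenocyte precursor-like cells of the *Fmod* cluster, 3.81 in *Cxcl14* *Abca8a* fibroblast-like cells and 1.47 in *Pi16* *Dpp4* fibroblast precursor-like cells. The last 2 values moved with the filter and with where the classes were drawn. With a looser filter, from 1000 UMIs and 500 features up and clustered anew, the *Cxcl14* *Abca8a* class held 18.5 CPM. The *Pi16* *Dpp4* class there held 9.63 CPM, with 52.4 CPM in RA_4d (268 UMIs in 141 cells) and between 3.81 and 5.18 in the other libraries. These classes held 3172 and 1722 cells, of which 209 and 166 lay outside the main filter, against 1568 and 1438 cells in the main classes. Class values with the looser filter below are likewise of classes drawn anew. With the main filter the level in the *Fmod* cluster was 15.1 CPM in control_7d and between 1.71 and 2.00 in the other libraries. Chondrogenic-like cells held 21.5 CPM in control_7d and 16.9 in RA_7d, and the wider class of the looser filter 27.3 and 32.6, in the other order. At 4 dpf that wider class held 51.5 CPM in control_4d and 179.7 in RA_4d (426 UMIs in 57 cells). Over all libraries it held 43.3 CPM, against 35.7 in cycling and 52.8 in committed progenitor-like cells with the looser filter. In the main class a single cell gave 67 of the 152 UMIs in control_7d, and 37 of 239 cells had a UMI. The main class was also split, after the data were seen, by *Sp7*, a transcription factor of osteoblasts and hypertrophic chondrocytes. Cells with a *Sp7* UMI held 22.3 CPM (261 cells), against 11.4 in those without one (111 cells). The cell with 67 UMIs lay in the first set, which held 187 UMIs, since the second set held 22 in control_7d. This difference thus rested in large part on 1 cell. In RA_7d, which lacks that cell, the levels were 18.7 and 9.51 CPM, with intervals that overlapped.

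Lymphocytes were the largest source outside the mesenchyme with the main filter. With the looser one an erythroid cell-like class of 635 cells held 235 UMIs and T and natural killer cells together 170. That erythroid cell-like class also held 198.5 CPM of *Csf1r*, 45 of *Tnfrsf11a* and 45.3 of *Csf1*, transcripts found mainly in myeloid or mesenchymal cells. It was thus mixed, and its *Tnfsf11* UMIs are not assigned to erythroid cells. T and natural killer cell-like cells, a single class here, held 1.96% of the *Tnfsf11* UMIs at 12.7 CPM in control and 19.4 in RA callus at 4 dpf, and 10.6 and 31.6 at 7 dpf. The level in RA_7d was 3.00 times that in control_7d (95% interval 1.65 to 5.89, 75 against 13 UMIs). Of the 75 UMIs, 1 cell gave 13 and 10 cells gave 77.3%. With the looser filter T cell-like cells held 72.0 CPM in RA_7d and 13.2 in control_7d. Natural killer cell-like cells held 4.25 and 11.5, and a mixed class of 60 cells 22.69 and 28.35. When the main class was split after the data were seen, cells with a UMI of a *Cd3* gene and none of *Ncr1* or *Klrb1c* held 48.5 CPM (252 cells), and cells with a natural killer UMI and no *Cd3* UMI held 4.07 CPM (338 cells). Within the first set the level was 24.7 CPM at 4 dpf and 13.8 at 7 dpf in control callus, against 45.1 and 81.9 in RA callus, from 35 cells with a UMI in all. Neutrophil-like cells held 30 UMIs, of which 28 came from 1 cell of RA_7d.

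The decoy OPG had another distribution within the mesenchyme. *Tnfrsf11b* was highest in chondrogenic-like cells, at 70.3 CPM in control_7d and 39.3 in RA_7d, and a UMI was found in 138 of 239 and 55 of 131 of these cells. Both values lay above the range of the next class by summed level, *Pi16* *Dpp4* cells. *Mmp13* tenocyte precursor-like cells of RA_4d, where 1 cell gave 35 of 40 UMIs, lay above the 39.3 CPM of RA_7d. Chondrogenic-like cells with and without a *Sp7* UMI held 57.8 and 68.3 CPM, with intervals that overlapped. This level depended on where the class was drawn. The chondrogenic-like class held 38.1 CPM when clustered at a coarser resolution, 29.5 CPM without the upper limits on UMIs and features, and 29.7 CPM with the looser filter, where it took in 1120 cells and 1361 *Tnfsf11* UMIs (43.3 CPM), 79 of the cells from control_4d and 57 from RA_4d. *Pi16* *Dpp4* fibroblast precursor-like cells followed with 21.3 CPM in control and 10.5 in RA callus at 4 dpf, and 20.9 and 25.8 at 7 dpf. With the main filter they were the largest source, with 28.4% of the UMIs, while chondrogenic-like cells held 20.97%. With the looser filter they were not, as cycling mesenchymal-like cells held 1039 UMIs, chondrogenic-like cells 932 and *Pi16* *Dpp4* cells 922. In the main classes cycling mesenchymal-like cells held 17.04 CPM and tenocyte precursor-like cells of the *Mmp13* cluster 15.1, with ranges over libraries that overlapped. Committed progenitor-like cells, first for the ligand, held 5.99 CPM of the decoy, between 1.33 in control_4d and 8.86 in control_7d. The capillary and arterial endothelial-like background was 0.536 CPM.

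**Figure D2:**
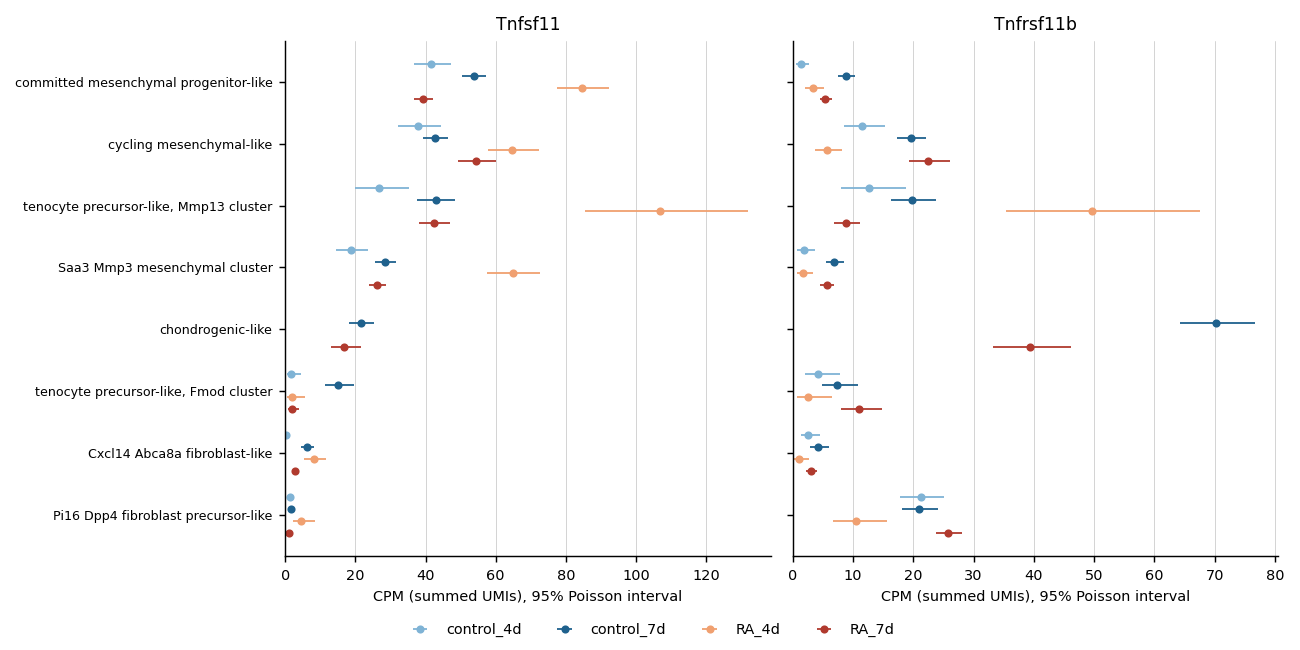
Level of *Tnfsf11* (left) and *Tnfrsf11b* (right) in CPM in each mesenchymal class, 1 point per library with its 95% Poisson interval; classes with under 5 cells in a library have no point. For *Tnfsf11*, RA_4d is the highest library in committed progenitor-like, cycling, *Saa3* *Mmp3* and *Mmp13* cells, and for *Tnfrsf11b* chondrogenic-like cells reach 70.3 CPM in control_7d.

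Ligand and decoy were then set against each other in the same cells. The count of *Tnfsf11* UMIs for each *Tnfrsf11b* UMI also depends on how well each transcript is captured, so equal counts are not a point of balance. This count is compared between cells only. Over all mesenchymal cells it was 2.15 in control_4d, 1.79 in control_7d, 9.40 (7.85 to 11.3) in RA_4d and 1.79 in RA_7d. RA_4d stood apart in this sum, with 1241 ligand UMIs and 132 decoy UMIs, of which 35 came from 1 cell. It did not in every class. In *Mmp13* tenocyte precursor-like cells the count was 2.125 in control_4d and 2.15 in RA_4d. In cycling cells it was 3.30 and 11.5, and in *Saa3* *Mmp3* cells 10.3 and 37.1. *Pi16* *Dpp4* cells, a large source of the decoy, numbered 198 in control_4d and 75 in RA_4d, and their part in the sum was not tested. Committed progenitor-like cells held more ligand than decoy UMIs in each library, at 31.2, 6.06, 25.2 and 7.22 in the order control_4d, control_7d, RA_4d and RA_7d. With the main filter *Pi16* *Dpp4* cells held fewer ligand than decoy UMIs, with 0.0588, 0.0846, 0.435 and 0.0413 in the same order. So did chondrogenic-like cells, with 0.306 in control_7d and 0.429 in RA_7d. Neither order of counts held throughout with the looser filter. There the *Pi16* *Dpp4* cells of RA_4d held 268 *Tnfsf11* and 30 *Tnfrsf11b* UMIs. In the other libraries the ligand count for each decoy UMI stayed between 0.213 and 0.260. The wider chondrogenic-like class held 1361 and 932 UMIs in all, with 0.582 in control_7d and 1.79 in RA_7d. Of 8908 mesenchymal cells 2230 had a *Tnfsf11* UMI, 1449 a *Tnfrsf11b* UMI and 290 both. Among 1794 committed progenitor-like cells these counts were 876, 211 and 92. The overlap to be met if the 2 were detected independently was not worked out. These counts are thus not read as a separation of ligand and decoy cells.

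**Figure D3:**
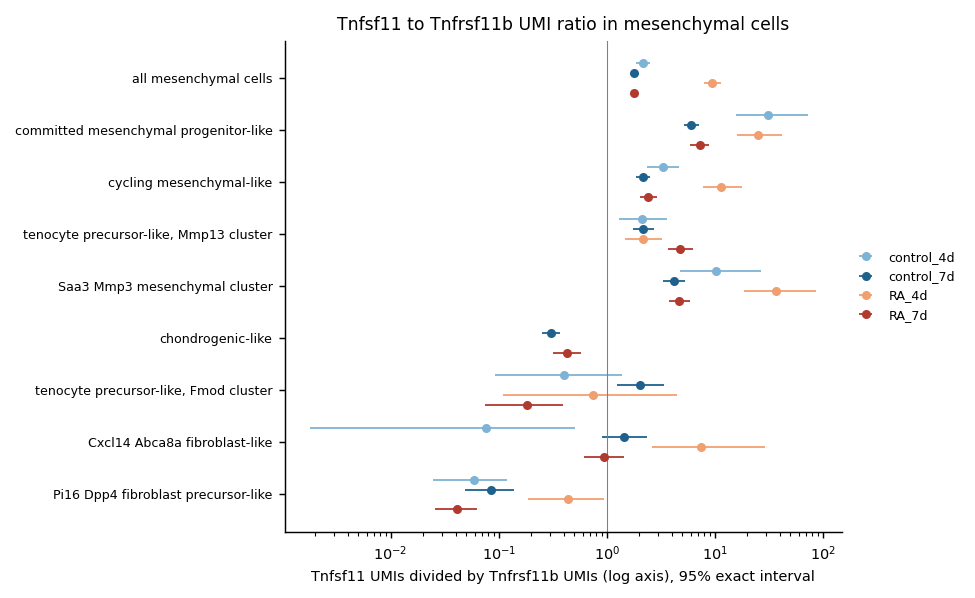
*Tnfsf11* UMIs divided by *Tnfrsf11b* UMIs (log axis) in all mesenchymal cells and in each class, 1 point per library with its 95% exact interval. The vertical line marks equal counts, which are not a point of balance, since capture may differ between the transcripts. With the main filter, which is drawn, committed progenitor-like cells lie to the right of the line and *Pi16* *Dpp4* cells to its left in all 4 libraries; with the looser filter the latter stand at 8.93 in RA_4d. RA_4d stands at 9.40 over all mesenchymal cells.

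Between conditions, *Tnfsf11* in mesenchymal cells was higher in RA than in control callus at 4 dpf and lower at 7 dpf. The level was 18.3 CPM at 4 dpf and 31.6 at 7 dpf in control callus, against 52.4 and 22.1 in RA callus. RA callus thus held 2.87 times the control level (95% interval 2.59 to 3.18) at 4 dpf and 0.701 times (0.662 to 0.742) at 7 dpf. Over time the level was 1.73 times as high at 7 as at 4 dpf in control callus and 0.422 times as high in RA callus. Of 7 mesenchymal classes with enough cells, 6 had a ratio at 4 dpf whose interval lay above 1. Some of these rested on few cells. *Pi16* *Dpp4* cells had 10 UMIs in 4 cells of RA_4d and 8 UMIs in 3 cells of control_4d. *Cxcl14* *Abca8a* cells had 30 UMIs in 10 cells of RA_4d and 1 UMI in control_4d. At 7 dpf the interval lay below 1 in 3 of 8 classes and above 1 in 1, cycling cells (1.27, 1.12 to 1.45). In those, 1 cell gave 59 and 10 cells gave 47.2% of the 411 RA_7d UMIs, and with the looser filter the ratio was 0.972 (0.837 to 1.13). At 4 dpf the RA level was 2.03 times that of control in committed progenitor-like, 1.70 times in cycling, 3.47 times in *Saa3* *Mmp3* and 3.98 times in *Mmp13* tenocyte precursor-like cells, the last from 27 RA_4d cells of which 1 gave 28 of 86 UMIs. With the looser filter the interval lay above 1 in 5 of 6 classes, and the ratio was 1.35 (1.21 to 1.51) in committed progenitor-like and 1.15 (1.04 to 1.28) in cycling cells. Library make-up moved with the mesenchymal sum at both times. *Pi16* *Dpp4* and *Cxcl14* *Abca8a* cells, low in *Tnfsf11* with the main filter, numbered 374 and 378 in control_7d and 791 and 836 in RA_7d. At 4 dpf they numbered 198 and 205 in control_4d and 75 and 149 in RA_4d. Their part in the ratios of 2.87 and 0.701 was not tested. In committed progenitor-like cells the ratio at 7 dpf was 0.730.

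The size of the difference at 4 dpf rested on the upper limits of the cell filter. In control_4d, 581 mesenchymal cells above these limits held 35.8 CPM of *Tnfsf11*, against 17.8 CPM in the 968 cells within them. In RA_4d the 2 levels were 50.3 and 52.5 CPM. With the upper limits dropped, RA callus held 1.82 times the control level (1.72 to 1.93) at 4 dpf and 0.702 times at 7 dpf, and in control callus the level at 7 dpf was 1.12 times that at 4 dpf (1.05 to 1.18).

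The decoy was lower in RA callus at both times in the mesenchymal sum. *Tnfrsf11b* stood at 8.48 CPM in control and 5.58 in RA callus at 4 dpf, and 17.6 and 12.4 at 7 dpf. Relative to control, RA callus held 0.658 times as much (0.529 to 0.815) at 4 dpf and 0.703 times (0.651 to 0.759) at 7 dpf. The level at 7 dpf was 2.08 times that at 4 dpf in control and 2.22 times in RA callus. The classes did not share one direction. At 4 dpf the interval lay below 1 in *Pi16* *Dpp4* and cycling cells and above 1 in committed progenitor-like and *Mmp13* tenocyte precursor-like cells, in the last of which 1 cell gave 35 of 40 RA_4d UMIs. With the looser filter the interval of the committed cells held 1 (1.66, 0.964 to 2.92). At 7 dpf the ratio was 0.559 (0.463 to 0.673) in chondrogenic-like cells and 1.23 (1.05 to 1.46) in *Pi16* *Dpp4* cells, where it was 0.969 (0.828 to 1.14) with the looser filter. With classes weighted equally the ratio was 0.953 at 4 dpf and 0.832 at 7 dpf. At 4 dpf this gives the 27 *Mmp13* cells of RA_4d, with 35 of 40 UMIs in 1 cell, the weight of a large class. With the looser filter the interval at 4 dpf lay below 1 in 4 of 6 classes and above 1 in 1. At 7 dpf it lay below 1 in 2 of 6 and above 1 in 1. Library make-up moved with the sum at both times. At 4 dpf *Pi16* *Dpp4* cells were 198 of the 969 mesenchymal cells of control_4d and 75 of the 795 of RA_4d. They gave 136 of the 251 control_4d UMIs and 23 of the 132 RA_4d UMIs. At 7 dpf chondrogenic-like cells were 239 of control_7d and 131 of RA_7d, and *Pi16* *Dpp4* cells 374 and 791. The part of these classes in the sums was not tested.

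As background to these ratios, all genes that reached 50 UMIs in the 2 libraries together were read on the log2(CPM + 1) scale, with 2-fold as the limit. In mesenchymal cells at 4 dpf 0.866% of 14206 genes were at least 2-fold higher in RA callus and 0.894% lower. Of the 6 members 1 was higher, *Tnfsf11*, and 0 were lower. Without the upper limits on UMIs and features *Tnfsf11* stood at 51.3 CPM in RA_4d and 28.1 in control_4d and was no longer past 2-fold. At 7 dpf 1.54% of 17254 genes were higher and 1.07% lower, and 0 of 6 members were past 2-fold. The median log2 ratio was 0.33 over the members and 0.04 over all genes at 4 dpf, and -0.15 and -0.03 at 7 dpf. In myeloid cells 0.347% of 13539 genes were higher and 0.458% lower at 4 dpf, where of 4 members with enough UMIs 1 was lower, *Csf1*. At 7 dpf 1.06% of 12780 genes were higher and 0.767% lower, and 0 of 3 members were past 2-fold. Here the medians were -0.03 over the members and 0.03 over all genes at 4 dpf, and 0.09 and -0.0011 at 7 dpf.

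M-CSF transcripts were found in most mesenchymal classes and in part of the endothelium. *Csf1* was highest among the large classes in *Cxcl14* *Abca8a* fibroblast-like cells, at 168.6 CPM at 4 dpf and 68.9 at 7 dpf in control callus, against 192 and 116.6 in RA callus. A UMI was found in 75.6% of these cells, at a median depth of 19929, and in 3.88% of resident macrophage-like cells, at a median depth of 13761 (33.4% and 1.35% after thinning to 4000 UMIs). *Pi16* *Dpp4* cells followed with 93.1 CPM, *Saa3* *Mmp3* cells with 85.5, *Fmod* tenocyte precursor-like cells with 78.9 and venular endothelial-like cells with 75.7. Each of these overlapped the class above it in its range over libraries. Committed progenitor-like cells, first for RANKL, held 49.8 CPM and chondrogenic-like cells 13.5 CPM (41.9 with the looser filter).

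In mesenchymal cells *Csf1* was lower at 7 than at 4 dpf in both conditions, and higher in RA than in control callus at both times. The level was 110.2 CPM in control and 129.2 in RA callus at 4 dpf, and 51.8 and 72.7 at 7 dpf. The ratio of 7 to 4 dpf was 0.470 (0.449 to 0.492) in control callus and 0.563 (0.539 to 0.587) in RA callus, and its interval lay below 1 in 7 of 7 classes in both. RA callus held 1.17 times as much as control (1.12 to 1.23) at 4 dpf and 1.40 times (1.35 to 1.46) at 7 dpf. The latter ratio was 1.69 in *Cxcl14* *Abca8a* cells, 1.57 in *Saa3* *Mmp3* cells and 1.81 in *Fmod* tenocyte precursor-like cells, and below 1 in cycling cells (0.655, 0.578 to 0.742).

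Myeloid cells held little *Csf1*. Their level was 12.9 CPM in control_4d and 4.77 in RA_4d, a ratio of 0.369 (0.310 to 0.436), and the interval lay below 1 in 6 of 9 myeloid clusters. In Arg1-high macrophage-like cells of the *Mmp12* cluster the level was 46.2 CPM in control_4d and 14.3 in RA_4d, where 1 cell gave 20 of 41 UMIs. At 7 dpf the myeloid ratio was 0.899 (0.677 to 1.19).

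The highest *Csf1* level of any class came from few cells. Mast cell or basophil-like cells (*Mcpt8*, *Cpa3*) held 300 CPM, of which RA_4d gave 257 of 263 UMIs from 18 of its 39 cells, and 1 cell gave 93. The level was 551 CPM in RA_4d and 4.91 in control_4d, which had 21 cells and 1 UMI. The class was mixed, however, and its 8 RA_7d cells held no UMI of *Mcpt8* or *Cpa3*. With the looser filter 275 B cell-like cells formed a class of their own, and the mast cell or basophil-like class held 1316 CPM over 93 cells. There it stood at 696.5 CPM in control (35 UMIs in 9 cells) and 1399 in RA callus at 4 dpf, and at 599.2 (25 UMIs in 7 cells) and 1679 at 7 dpf. Some B cell genes were among the leading genes of this cluster, such as *Igkc*.

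**Figure D4:**
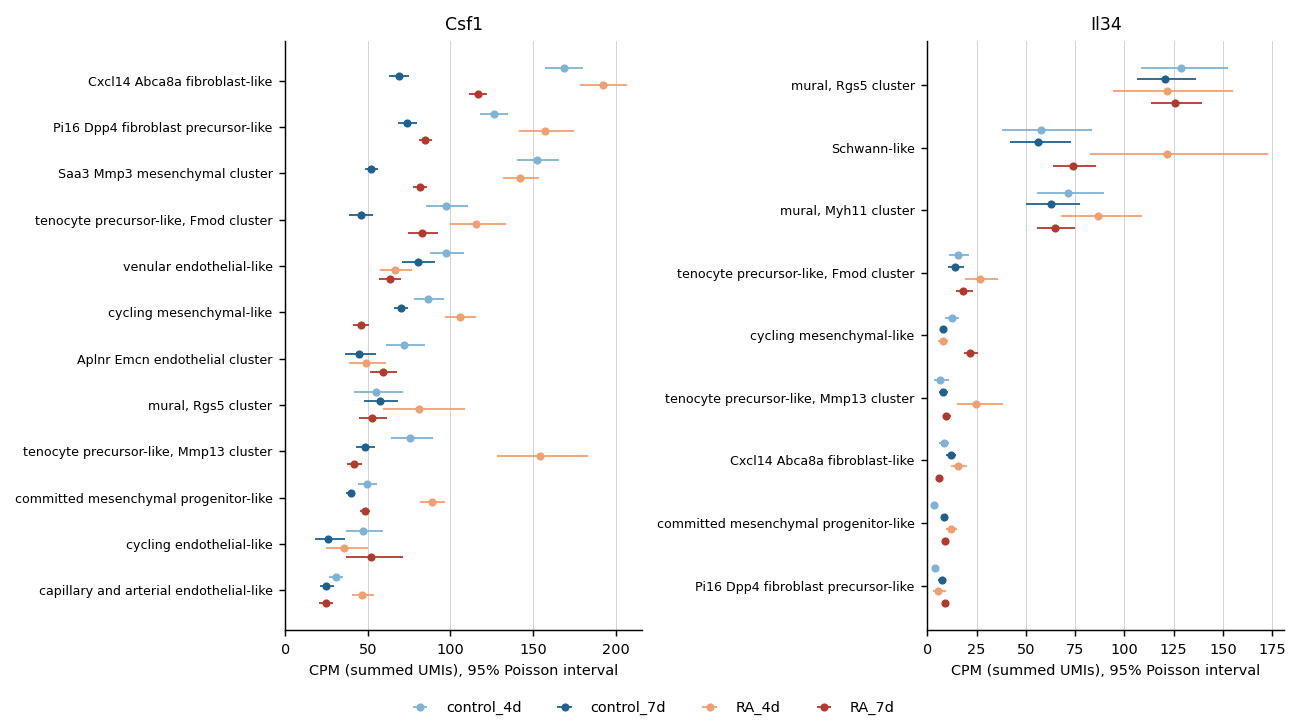
Level of *Csf1* (left) and *Il34* (right) in CPM in the classes that held most of each, 1 point per library with its 95% Poisson interval; mast cell or basophil-like cells are left out. *Csf1* is higher at 4 than at 7 dpf in the 7 mesenchymal classes drawn at both times, and *Il34* in the mural *Rgs5* cluster lies between 120.6 and 128.9 CPM in all 4 libraries.

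The second ligand of the M-CSF receptor had other sources. *Il34* was highest in mural cells of the *Rgs5* cluster, with 128.9 CPM at 4 dpf and 120.6 at 7 dpf in control callus, against 121.7 and 125.6 in RA callus. These 4 values lay close together. Over both mural clusters RA callus held 0.998 times the control level (0.799 to 1.24) at 4 dpf and 0.984 times (0.859 to 1.13) at 7 dpf, with intervals that held 1. Schwann-like cells, which sheathe axons, held 70.8 CPM, between 55.9 in control_7d and 121.6 in RA_4d with 20 cells, and the *Myh11* mural cluster held 68.5. The ranges of these 2 classes overlapped. A UMI was found in 73.9% of the *Rgs5* cells at a median depth of 13777 and in 0.592% of resident macrophage-like cells at a median depth of 13761 (41.3% and 0.269% after thinning).

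In mesenchymal cells *Il34* was lower than in mural cells throughout. *Fmod* tenocyte precursor-like cells led with 17.6 CPM, and the other classes held between 5.86 and 11.96. Summed, the level was 7.64 CPM in control and 12.04 in RA callus at 4 dpf, and 8.18 and 9.03 at 7 dpf, with RA_4d the highest. This was 1.58 times the control level (1.32 to 1.89) at 4 dpf and 1.10 times (0.997 to 1.22) at 7 dpf, the latter with an interval that held 1. Committed progenitor-like cells had a ratio of 3.40 (2.06 to 5.82) at 4 dpf, from 71 and 21 UMIs, and of 1.92 (1.38 to 2.70) with the looser filter.

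RANK was read next, by myeloid cell type. *Tnfrsf11a* was highest in osteoclast-like cells, at 182.7 CPM at 4 dpf and 224.1 at 7 dpf in control callus, against 199.2 and 235.6 in RA callus, the last from 9 cells. A UMI was found in 97.1% of these cells, at a median depth of 28933, and in 9.24% of capillary and arterial endothelial-like cells, at a median depth of 16884 (53.9% and 2.50% after thinning). Cycling myeloid-like cells held 156.6 CPM and MHC class II-high macrophage-like cells of the *C1q* cluster 140.2. The receptor was not limited to osteoclast-like cells: Arg1-high macrophage-like cells of the *Gpnmb* cluster held 120.0 CPM, resident macrophage-like cells 117.6, and the *Mmp12* and *Retnla* clusters 107.2 and 91.1. These ranges overlapped between neighbours. Monocyte-like cells held 29.04 CPM and the dendritic-like cluster 52.0. Because of their numbers, the *Gpnmb* cluster (18.5%) and resident macrophage-like cells (15.4%) held more of all *Tnfrsf11a* UMIs than osteoclast-like cells did (10.1%).

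Osteoclast-like cells were few in RA_7d. They numbered 107 in control_4d (1.96% of its kept cells), 96 in control_7d (1.25%), 135 in RA_4d (3.29%) and 9 in RA_7d (0.109%, 95% Clopper-Pearson interval 0.0501 to 0.208%). With the looser filter the class held 136, 134, 170 and 12 cells in the same order. Of the latter, 92 lay outside the limits of the main filter, 3 of them in RA_7d.

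In myeloid cells the level of *Tnfrsf11a* was higher in RA than in control callus, by a small ratio. It was 111.1 CPM in control and 142.5 in RA callus at 4 dpf, and 107 and 114.2 at 7 dpf. The RA level was 1.28 times that of control (1.24 to 1.33) at 4 dpf and 1.07 times (1.01 to 1.13) at 7 dpf. With osteoclast-like cells left out, it was 106.4 CPM in control and 135.1 in RA callus at 4 dpf (log2 ratio 0.34). At 7 dpf it was then 96.4 and 113 CPM (log2 ratio 0.23). At 4 dpf the interval of the ratio lay above 1 in 6 of 9 clusters, with ratios of 1.25 to 1.49 in the 5 macrophage-like clusters. In osteoclast-like cells it held 1 (1.09, 0.981 to 1.21). At 7 dpf it lay above 1 in 4 of 8 clusters and below 1 in 2, monocyte-like cells (0.542, 0.321 to 0.884) among them.

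RANK was also found in endothelium. Venular endothelial-like cells, marked by *Selp* (1215 CPM) and *Ackr1* (592 CPM), held 107.3 CPM of *Tnfrsf11a*, beside 107.2 in the *Mmp12* macrophage-like cluster, and a UMI was found in 53.8% of them at a median depth of 13817. The likeness of these 2 levels did not hold with the looser filter. There the venular class held 77 CPM (73.6 to 80.5, 1669 cells) and the Arg1-high macrophage-like class 116.2. With the main filter the venular level was 103.2 CPM at 4 dpf and 89.1 at 7 dpf in control callus, against 99.5 and 123.8 in RA callus. Lymphatic endothelial-like cells held 74.8 CPM and an unnamed endothelial cluster led by *Aplnr* and *Emcn* 31.8, against 6.61 in capillary and arterial endothelial-like cells. Over all endothelial cells the level was 39.4 CPM in control and 46.6 in RA callus at 4 dpf, and 28.9 and 59.2 at 7 dpf. RA endothelium held 1.18 times the control level (1.05 to 1.34) at 4 dpf and 2.05 times (1.82 to 2.30) at 7 dpf, where the interval lay above 1 in 4 of 5 endothelial classes. It was 1.39 in venular, 1.83 in lymphatic and 3.86 (2.43 to 6.44) in *Aplnr* *Emcn* cells. Venular cells were 229 of control_7d and 433 of RA_7d, so the make-up of the endothelium moved with the sum, and its part was not tested.

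**Figure D5:**
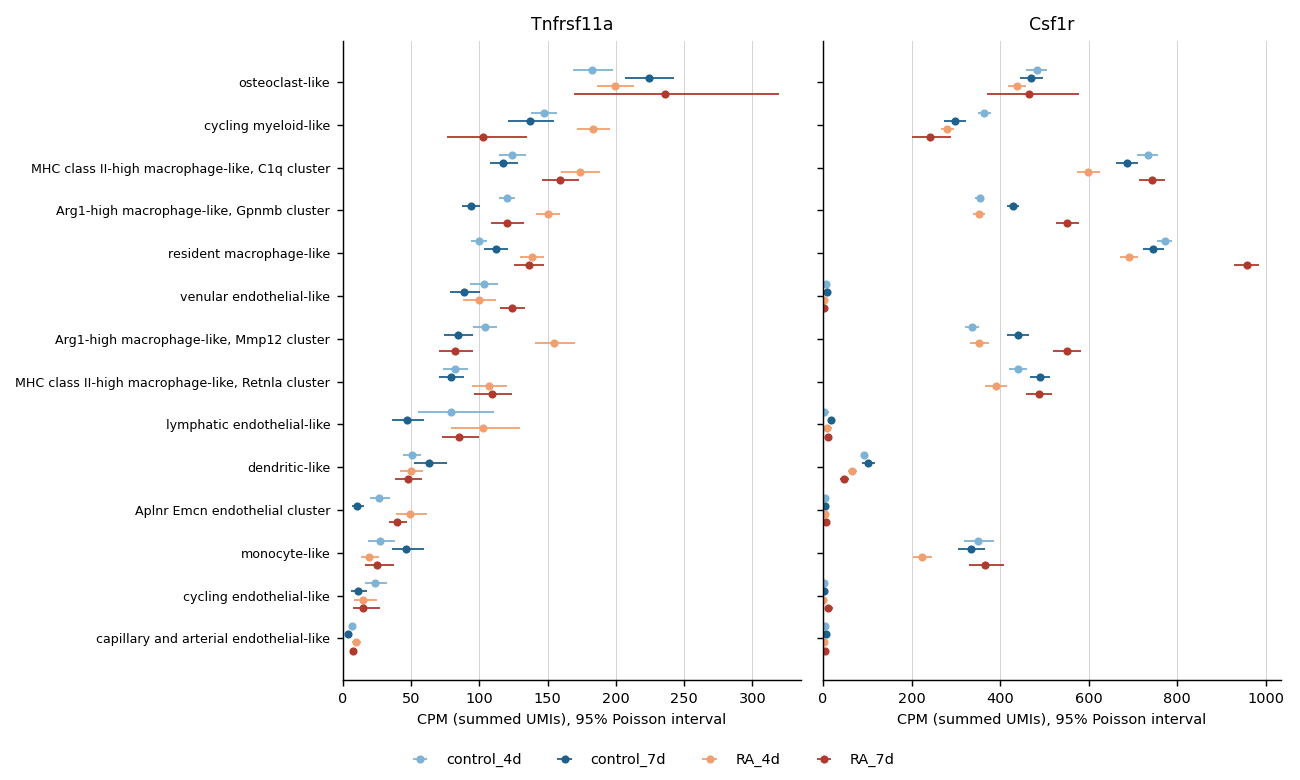
Level of *Tnfrsf11a* (left) and *Csf1r* (right) in CPM in myeloid and endothelial classes, 1 point per library with its 95% Poisson interval. Osteoclast-like cells are the highest for *Tnfrsf11a* (201.1 CPM over all libraries) and resident macrophage-like cells for *Csf1r* (777.6 CPM). With the main filter, which is drawn, venular endothelial-like cells hold 107.3 CPM of *Tnfrsf11a* and 5.13 CPM of *Csf1r*; with the looser filter they hold 77 CPM of *Tnfrsf11a*.

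The M-CSF receptor was led by other myeloid cells than RANK. *Csf1r* stood at 771.7 CPM at 4 dpf and 746.2 at 7 dpf in control callus, against 690.8 and 956.3 in RA callus in resident macrophage-like cells (*Mrc1*, *Folr2*), which held 28.8% of its UMIs. The MHC class II-high *C1q* cluster held 694.7 CPM, with an overlapping range. Osteoclast-like cells came below both with 460.7 CPM, between 437.8 in RA_4d and 482.3 in control_4d. The *Retnla* cluster held 452.4 CPM, the 2 Arg1-high clusters 397.6 and 394.1, cycling cells 321.8 and monocyte-like cells 304.3. A UMI was found in 99.1% of resident macrophage-like cells (median depth 13761) and in 5.66% of capillary and arterial endothelial-like cells (median depth 16884), where the level was 4.55 CPM. After thinning these shares were 91.2% and 1.58%.

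*Csf1r* in myeloid cells was lower in RA than in control callus at 4 dpf and higher at 7 dpf. The level was 463.6 CPM in control and 410.8 in RA callus at 4 dpf, and 495.2 and 605.8 at 7 dpf. RA cells held 0.886 times the control level (0.868 to 0.904) at 4 dpf, with the interval below 1 in 7 of 9 clusters, and 1.22 times (1.19 to 1.25) at 7 dpf, with the interval above 1 in 4 of 8 clusters and below 1 in 2. It was 0.639 (0.557 to 0.733) in monocyte-like cells at 4 dpf and 1.28 (1.23 to 1.34) in resident macrophage-like cells at 7 dpf. In RA callus the level was 1.47 times as high at 7 as at 4 dpf, against 1.07 times in control callus.

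UMIs of both receptors in the same cell were common in osteoclast-like cells and macrophages and rare in venular endothelium. Of 347 osteoclast-like cells 333 (96.0%) had UMIs of both, as did 79.4% of cycling myeloid-like cells and between 51.3% and 67.5% of the cells in the 5 macrophage-like clusters. In monocyte-like cells it was 23.9% (105 of 439) and in the dendritic-like cluster 12.8% (111 of 868). These shares were not thinned and also follow depth, which was greater in osteoclast-like than in resident macrophage-like cells. In resident macrophage-like cells 99.4% of the cells with a *Tnfrsf11a* UMI also had one of *Csf1r*, against 32 of 558 (5.73%) in venular endothelial-like cells. *Csf1r* UMIs for each *Tnfrsf11a* UMI came to 10.5 in monocyte-like, 6.62 in resident macrophage-like, 2.29 in osteoclast-like and 0.0478 in venular endothelial-like cells.

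Genes that act on this axis were read from 8 lists with 79 genes, in the lineage each acts in. Log2 ratios were again taken on the log2(CPM + 1) scale, which makes differences between low levels smaller. Of the cytokines and hormones known to raise RANKL, 7 of 10 were measured in mesenchymal cells at 4 dpf, where 1 was at least 2-fold lower in RA callus, *Pthlh* (parathyroid hormone-related protein, log2 ratio -1.36), and the median was 0.0058. At 7 dpf 1 of 8 was higher, *Il6*, with 34.7 CPM in RA_7d and 14.4 in control_7d (log2 ratio 1.22), and the median was 0.19. *Il1b* stood at -0.73 and *Lif* at 0.46. The *Il1b* value came from low levels, 1.34 CPM in RA_7d and 2.88 in control_7d. It is of mesenchymal cells only and does not give *Il1b* in the whole callus. Of the 11 receptors for these signals 1 was higher at 4 dpf, the vitamin D receptor *Vdr* (1.29), and 0 were past 2-fold at 7 dpf, where *Pth1r*, the receptor of parathyroid hormone, stood at -0.997, *Il6ra* at 0.90 and *Il11ra1* at 0.80. Their medians were 0.25 and 0.24.

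Sheddases and other binding partners, and secreted factors that restrain osteoclasts, had 0 genes past 2-fold at either time. The former had medians of 0.018 (6 of 7 measured) and -0.038 (7 of 7), and the latter 0.16 (5 of 8) and 0.27 (6 of 8). The values furthest from 0 at 7 dpf were -0.98 for *Ptprz1*, which encodes a receptor for interleukin 34, -0.41 for the heparan sulphate carrier *Sdc1*, 0.19 for the protease *Adam17*, 0.37 for *Wnt16*, 0.34 for *Il27* and -0.33 for *Sfrp1*. *Ptprz1* was low, at 0.561 CPM in RA_7d and 2.07 in control_7d, and only the added 1 CPM kept it within 2-fold.

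Downstream of the receptors, the genes of fusion and resorption stood lower in myeloid cells of RA than of control callus at 7 dpf. Of these, 7 of 11 measured were at least 2-fold lower, with a median log2 ratio of -1.83, against 0 of 11 and 0.21 at 4 dpf. *Mmp9*, a matrix protease, stood at 11.7 CPM in RA_7d and 252.8 in control_7d (log2 ratio -4.32), the collagenase *Ctsk* at 96.9 and 647.9 (-2.73), and carbonic anhydrase *Car2* at 1.15 and 10.3 (-2.40). The number of osteoclast-like cells moved with these values. With those cells left out, 0 of 11 genes were past 2-fold, the median was -0.32, *Ctsk* stood at -0.89, *Mmp9* at -0.68 and *Car2* at -0.49. The osteoclast-like class was named from markers that are mostly in this list too, *Ctsk* and *Mmp9* among them. Leaving the class out was therefore bound to shrink the difference, and these values are a description only.

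In the signalling lists few genes were past 2-fold. Of 16 transducers and transcription factors 1 was higher at 4 dpf, the kinase *Src* (1.01), and 1 lower at 7 dpf, *Nfatc1* (-1.07), the master regulator of osteoclast formation. With TMM scaling, which sets libraries on a common scale from most of their genes, *Src* was no longer past 2-fold, nor was *Sirpb1a*, named next. Without osteoclast-like cells 0 of 16 were past 2-fold at either time, and *Nfatc1* stood at -0.29 at 7 dpf. *Src* stood at -0.94 and *Map3k14*, the kinase NIK, at 0.44, and the medians were 0.078 and 0.11. Of 9 co-stimulatory receptors and adaptors 1 was higher at 4 dpf, *Sirpb1a* (1.00), and 1 lower at 7 dpf, *Oscar*, with 1 UMI in RA_7d and 119 in control_7d. *Oscar* is a marker from which osteoclast-like cells were named, and these cells held 113 of its control_7d UMIs. Without them it had 0 UMIs in RA_7d and 6 in control_7d. *Sirpb1a* stood at 0.66 and *Trem2* at -0.21 at 7 dpf, and the medians were -0.011 and 0.0100. Of the 6 repressors of osteoclast formation 0 were past 2-fold, with medians of 0.082 and 0.27, and *Tnfaip3* (0.44), *Irf8* (0.38) and *Bcl6* (0.30) stood furthest from 0 at 7 dpf.

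Lastly, the genes whose pattern over the 29 classes was most like each member were listed by Pearson correlation of log2(CPM + 1), among 11210 genes. The points share libraries and the correlations are descriptions. For *Tnfsf11* they were *Myo16* (r = 0.85), *Col8a2*, *Gm10635*, *Camk4* and *Tnn* (0.80). For *Tnfrsf11b* they were *Anxa8* (0.96), *Rbp4*, *Ift20*, *Rpl39l* and *Ptgs2os* (0.92), and for *Csf1* *Itga2b* (0.88), *Mn1*, *Aacs*, *Heg1* and *Setd7* (0.81). *Il34* was most like *Chst8* (0.95), *Mgat3*, *Pde1a*, *Tbx2* and *Hspb2* (0.92). *Tnfrsf11a* was most like *Zfand2a* (0.93), *Rasa4*, *Coro1c*, *Rab5c* and *Abcg1* (0.87), and *Csf1r* like *Cd68* (0.98), *Lrrc25*, *9130230L23Rik*, *Rbm47* and *Pla2g7* (0.97). Between members, the ligand and the decoy had r = 0.70 and the 2 receptors 0.73.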

How the data were processed

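Single cells of fracture callus were sequenced on the Chromium 3′ platform, 1 library per condition and time. The deposited matrices hold raw UMI counts per gene and barcode, output of Cell Ranger 7.0.1 run on mm10 by the authors, per the labels and their methods. Barcodes with 4000 to 50000 UMIs, 2000 to 7000 features and at most 8% mitochondrial UMIs were kept. Libraries were integrated and clustered in Seurat 5.3.0 (R 4.3.3; 2000 variable genes without the members, 15 principal components, resolution 1), and clusters were named from marker lists. Scrublet, run through scanpy, called doublets, which were kept. Counts were summed per class and library in Python 3.11.15, and CPM were given exact Poisson intervals, shares Clopper-Pearson intervals and ratios exact conditional intervals from scipy 1.17.1. Interval code was tested on simulated data. A ratio needed 20 or more cells of the class in each of its 2 libraries, and genes were read past 2-fold from 50 UMIs on. Named genes are the members, the markers, up to 3 genes per pathway list with the largest log2 ratio at 7 dpf and the 5 genes most like each member. Genes past 2-fold at 4 dpf were named after their values were seen. Members and lists were chosen with earlier results of these data known. Dropping the upper limits, leaving out osteoclast-like cells and the lymphocyte and chondrogenic splits were chosen after seeing the data.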

Additional observations from a re-analysis of the deposited data

Results flagged for a closer look

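Several ratios pointed in opposite directions at the 2 times or in the 2 conditions, with both counting intervals clear of 1 and, for a single class, both ratios at least 1.3-fold from 1. None of these differences was tested, since there was 1 library for each condition and time.

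For RANKL, mesenchymal *Tnfsf11* in RA callus was 2.87 times the control level at 4 dpf and 0.701 times at 7 dpf, and from 4 to 7 dpf it went with a factor of 1.73 in control and 0.422 in RA callus. Without the upper limits on UMIs and features, the values of 2.87 and 1.73 became 1.82 and 1.12. Committed progenitor-like cells had RA to control ratios of 2.03 and 0.730 at the 2 times, and of 1.35 and 0.699 with the looser filter. The factor from 4 to 7 dpf was 1.52 in control and 0.405 in RA callus in the *Saa3* *Mmp3* cluster, and 1.60 and 0.397 in tenocyte precursor-like cells of the *Mmp13* cluster. In the latter cells *Tnfrsf11b* had RA to control ratios of 3.93 and 0.447, and factors over time of 1.57 and 0.178, with 35 of the 40 RA_4d UMIs in 1 cell.

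For the ligands of the M-CSF receptor, *Csf1* in the *Aplnr* *Emcn* endothelial cluster had RA to control ratios of 0.677 at 4 dpf and 1.32 at 7 dpf. *Il34* had a factor over time of 2.35 in control and 0.747 in RA callus in committed progenitor-like cells, and RA to control ratios of 1.90 and 0.511 in *Cxcl14* *Abca8a* fibroblast-like cells. In cycling mesenchymal-like cells its RA to control ratios were 0.630 and 2.77, and its factors over time 0.644 and 2.83. With the looser filter these opposite directions in cycling cells were gone, with ratios of 1.73 and 1.91 and factors of 1.31 and 1.44, and the factor in control committed progenitor-like cells was 1.38. *Cxcl14* *Abca8a* cells kept their directions there with smaller differences. They held 9.94 CPM in control_4d and 12.9 in RA_4d, and 9.09 in control_7d and 6.73 in RA_7d. In the main class 1 cell gave 16 of the 58 RA_4d UMIs.

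For the receptors, *Tnfrsf11a* in endothelial cells had a factor over time of 0.735 in control and 1.27 in RA callus. *Csf1r* in myeloid cells had RA to control ratios of 0.886 and 1.22.

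Barcodes that the cell filter left out also held signal. Under the looser filter, 92 osteoclast-like barcodes outside the limits held 230.4 CPM of *Tnfrsf11a* (95% interval 214.7 to 246.9) at a median of 49606 UMIs, and 70 mast cell or basophil-like barcodes held 1400.9 CPM of *Csf1*.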

How the results depend on the processing

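No paired analysis was possible because each condition and time had 1 library, and for the same reason no replicate could be left out. Depth limits rare transcripts: 1 cell could set the value of a small class. With TMM scaling, mesenchymal *Csf1* had an RA to control ratio of 1.11 at 4 dpf and a ratio of 7 to 4 dpf in control callus of 0.441. Myeloid *Csf1r* had RA to control ratios of 0.867 and 1.19 and a ratio over time in RA callus of 1.44, and 0 pathway genes were past 2-fold in myeloid cells at 4 dpf. The split of all genes into higher and lower was 97 and 146 in mesenchymal cells at 4 dpf and 294 and 162 at 7 dpf, 42 and 68 in myeloid cells at 4 dpf and 125 and 106 at 7 dpf.

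With cells thinned to 4000 UMIs, the percent of mesenchymal cells with a *Tnfsf11* UMI was 5.68 and 9.25 in control callus at 4 and 7 dpf and 11.8 and 5.55 in RA callus. In the same order it was 2.58, 4.77, 1.38 and 3.88 for *Tnfrsf11b* and 32.5, 16.7, 34.8 and 24.3 for *Csf1*. In mural cells it was 37.8, 33.1, 41.1 and 33.3 for *Il34*, and in myeloid cells 30.2, 30.2, 38.8 and 32.9 for *Tnfrsf11a* and 73.0, 77.5, 69.9 and 78.5 for *Csf1r*.

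With cells weighted equally, the ratio of 7 to 4 dpf was 1.92 for mesenchymal *Tnfsf11* in control, 0.589 for *Csf1* in RA, 0.843 for myeloid *Tnfrsf11a* in RA, and 1.12 in control and 1.51 in RA for *Csf1r*. RA to control at 7 dpf was 1.49 for *Csf1* and 1.13 for *Tnfrsf11a*. *Tnfsf11* UMIs per *Tnfrsf11b* UMI came to 7.58 in RA_4d and 1.67 in RA_7d. With classes weighted equally, the ratio over time was 2.04 in control and 0.524 in RA for *Tnfsf11*, 1.68 in RA for *Tnfrsf11b*, and 0.557 in control and 0.510 in RA for *Csf1*. RA to control at 4 and 7 dpf was 0.953 and 0.832 for *Tnfrsf11b* and 1.32 and 1.35 for *Csf1*. The *Tnfrsf11b* value at 4 dpf takes in the *Mmp13* cells of RA_4d, where 1 cell gave 35 of 40 UMIs.

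The looser filter and the dropped upper limits, given in this order, moved the same values. RA to control at 4 dpf for mesenchymal *Tnfsf11* was 1.82 and 1.82, and its ratio over time in control 1.12 and 1.12. *Csf1* had RA to control ratios at 7 dpf of 1.28 and 1.28, and ratios over time of 0.561 and 0.562 in control and 0.588 and 0.589 in RA. Myeloid *Csf1r* over time in control was 1.09 with the looser filter. Endothelial *Csf1* over time in RA callus was 0.883 and reversed to 1.00 and 1.01. The mesenchymal share was 91.8% and 92.2% for *Tnfsf11*, 95.1% and 95.2% for *Tnfrsf11b*, and 77.1% and 79.3% for *Csf1*. The mural share of *Il34* was 27.4% and 26.5%, and the myeloid share 78.3% and 78.2% for *Tnfrsf11a* and 88.4% and 88.3% for *Csf1r*. Ligand UMIs per decoy UMI were 2.94 and 2.95 in control_4d, 1.65 and 1.64 in control_7d, and 1.66 and 1.65 in RA_7d. For *Tnfsf11* the levels within and above the upper limits are given with its ratios, and the cause of these moves was not tested.

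With doublets left out, the mesenchymal share was 95.3% for *Tnfsf11*, 97.2% for *Tnfrsf11b* and 77.2% for *Csf1*, and the myeloid share 84.5% for *Tnfrsf11a* and 96.0% for *Csf1r*. At resolution 0.5 the first 3 shares were 94.7%, 97.0% and 76.7%. With the members among the variable genes that of *Tnfsf11* was 93.3%, and without integration *Csf1* had 76.6% and *Csf1r* 92.4%. Over classes split by library, 1 of the 5 genes most like *Tnfsf11* was shared, 3 for *Tnfrsf11b*, 0 for *Csf1* and 3 for *Tnfrsf11a*. A pseudocount of 10 CPM left 0 pathway genes past 2-fold in mesenchymal cells at 4 dpf, 0 at 7 dpf, and 0 and 5 in myeloid cells. With osteoclast-like cells left out it was 0 in myeloid cells at 7 dpf. A limit of 10 UMIs per gene moved 0 of 12 values.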
